A study of Mus musculus with 30 samples.

Results

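Gene expression in the mouse heart was compared with that in skeletal muscle, on 2 heart arrays and 2 muscle arrays chosen by their labels out of the 30 arrays of an adult tissue series. All 4 RNA samples came from pieces of tissue of male C57BL/6 mice labelled as 28 weeks old, with no treatment given. The study's methods give another age. The label reads muscle, the study's methods give skeletal muscle, and neither names which muscle or which chamber of the heart was taken. The replicates were taken from different animals. On every array the tissue RNA was labelled with Cy3 and hybridised against a common Cy5 reference, a pool of RNA from cultured mouse cell lines and ES cells, with the dyes in the same orientation throughout. Levels are given as log2 ratios, log2(Cy3/Cy5), and differences as the heart ratio minus the muscle ratio. In whole pieces of tissue fewer cells of a type and less RNA per cell cannot be told apart.

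Heart and skeletal muscle are both striated, and build their sarcomeres from the same set of proteins, many of which exist in a cardiac and a skeletal form encoded by different genes. The heart beats without rest, is driven largely by fatty acid oxidation and mitochondrial respiration, and is controlled by adrenergic receptors that act through cyclic AMP. Skeletal muscle fibres contract on command from motor nerves through acetylcholine receptors, use a voltage sensor that is coupled directly to the calcium release channel, and in fast fibres draw on glycogen and glycolysis.

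The replicates lay close together. Across the 21,025 probes tested, r was 0.991 between the heart arrays and 0.984 between the muscle arrays, against 0.774 to 0.786 between a heart and a muscle array. Replicates differed by over 1 log2 for 0.162% of the probes in heart and 0.914% in muscle. Between 59.8% and 62.5% of the probes in the authors' value table were well above background in the Cy3 channel on the 4 arrays, and no spot was saturated. Both heart arrays lay on 1 slide together with the liver arrays. The muscle arrays lay on 2 other slides and were scanned on another day, so tissue and slide, or tissue and scan day, cannot be told apart by a fixed block. Of the probes tested, 5,049 carried a gene symbol in the study's probe lists, and every rank below holds among these.

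In all 3,195 probes (15.2% of those tested) were called, which needed both an adjusted p below 0.05 (limma, Benjamini-Hochberg) and a difference of 1 log2 or more. Heart was higher for 1,929 of them (9.17% of those tested) and muscle for 1,266 (6.02%). Among the probes with a symbol 649 (12.9%) were called, with heart the higher tissue for 372 (7.37%) and muscle for 277 (5.49%). The split depended on the scaling of the arrays. With median centring in place of loess, heart was higher for 1,037 probes (4.93%) and muscle for 1,313 (6.24%), so 44.1% of the calls favoured heart instead of 60.4%. The median difference over all probes was 0.04 with loess and 0.05 with median centring. Of the called probes 191 were over 3 log2 higher in heart and 188 over 3 log2 higher in muscle. For 163 of the probes called higher in heart, muscle was not well above background on either array, and for 147 of those called higher in muscle the same was true of heart. The heart and muscle arrays did not overlap for 15,420 of the probes tested (73.3%), which is the level to read any such count against.

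**Figure D1:**
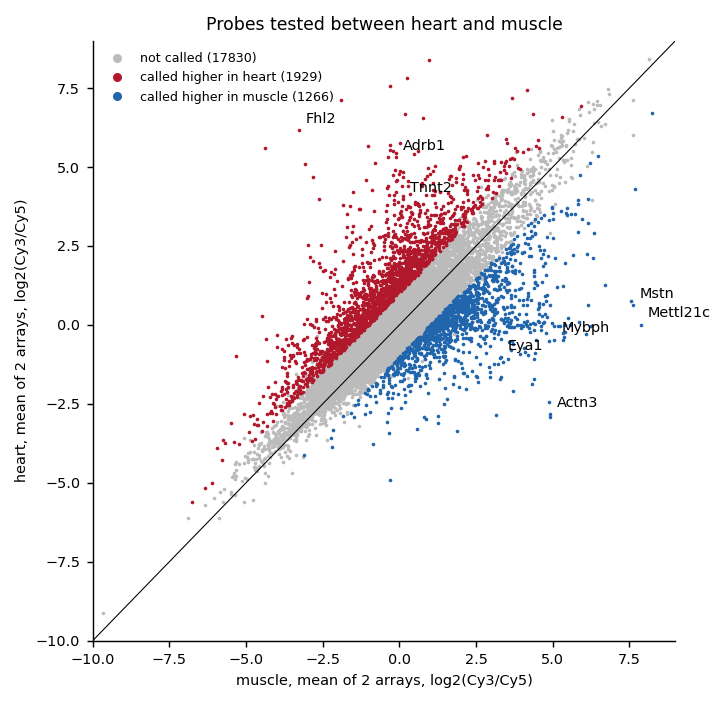
Mean log2(Cy3/Cy5) of the 2 heart arrays (vertical axis) against that of the 2 muscle arrays (horizontal axis) for the 21,025 probes tested, with the line of equal values. The 1,929 probes called higher in heart lie above the line and the 1,266 called higher in muscle below it. The named probes Fhl2 and Actn3 lie far from the line on opposite sides.

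The tissue labels were checked against marker genes. Both heart muscle markers with a symbol, Fhl2 and Tnnt2, were called higher in heart. Of the 7 skeletal muscle markers 6 were called higher in muscle, against 6.02% of all probes (5 when any 1 of the 4 arrays was left out), with a median difference of -3.59 over the list (-5.80 from Cy3 alone and -5.44 from the scanner's processed signals), and the 7 heart values were all lower than the muscle values. The seventh was Chrnd, a subunit of the acetylcholine receptor, which was well above background on 1 muscle array and on no heart array. Other defining markers of either tissue, such as Myh6, Nppa, Acta1 and Ckm, carried no symbol and were not analysed here.

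Promoter sequences are shown for 2 genes higher in heart that served as heart muscle markers (Fhl2 and Tnnt2) and 2 genes higher in muscle (Mybph and Myog). They were chosen after their values and windows were seen. Each window runs from 250 bases before to 50 bases after the first RefSeq start listed for the gene, 5′ to 3′ on the coding strand, in build GRCm38.p6. Capitals mark the letters of an E-box (CAGCTG or CACCTG, the kind of site bound by myogenic basic helix-loop-helix factors), an M-CAT element (CATTCC, bound by TEAD factors) or a GATA site (AGATAA), searched on both strands.
Fhl2 (chr1:43196712-43197011, minus strand): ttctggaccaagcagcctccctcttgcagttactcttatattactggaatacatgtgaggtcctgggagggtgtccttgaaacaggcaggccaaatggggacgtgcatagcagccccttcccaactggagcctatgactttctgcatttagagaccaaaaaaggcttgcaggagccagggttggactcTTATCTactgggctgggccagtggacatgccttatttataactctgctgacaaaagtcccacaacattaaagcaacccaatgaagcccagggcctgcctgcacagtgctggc
Tnnt2 (chr1:135836084-135836383, plus strand): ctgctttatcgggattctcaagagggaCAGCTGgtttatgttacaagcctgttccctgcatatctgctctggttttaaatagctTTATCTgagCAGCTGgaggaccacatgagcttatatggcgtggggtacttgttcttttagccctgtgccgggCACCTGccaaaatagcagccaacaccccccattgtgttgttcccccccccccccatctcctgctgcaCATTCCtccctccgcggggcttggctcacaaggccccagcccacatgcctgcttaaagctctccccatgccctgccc
Mybph (chr1:134193198-134193497, plus strand): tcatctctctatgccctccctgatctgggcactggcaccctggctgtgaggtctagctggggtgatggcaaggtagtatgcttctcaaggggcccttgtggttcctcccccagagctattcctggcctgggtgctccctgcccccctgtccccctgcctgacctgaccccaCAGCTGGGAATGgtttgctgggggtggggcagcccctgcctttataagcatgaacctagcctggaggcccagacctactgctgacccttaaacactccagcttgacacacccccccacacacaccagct
Myog (chr1:134289754-134290053, plus strand): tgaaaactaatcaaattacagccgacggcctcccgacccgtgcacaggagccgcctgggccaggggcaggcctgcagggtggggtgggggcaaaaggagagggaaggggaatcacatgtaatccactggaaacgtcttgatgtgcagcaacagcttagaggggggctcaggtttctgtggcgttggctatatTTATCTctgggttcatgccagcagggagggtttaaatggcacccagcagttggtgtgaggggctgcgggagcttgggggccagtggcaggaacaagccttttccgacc
The Tnnt2 window held CAGCTG at 223 and 157 bases before the start, a GATA site at -166, CACCTG at -94 and an M-CAT element at -27. The Mybph window held CAGCTG at -79, directly followed by an M-CAT element at -73. Fhl2 had 1 GATA site (-62) and so had Myog (-58), and no letters of these motifs stood in the Mstn and Adrb1 windows. Over 27,025 mouse promoter windows of this length, 16.1% held CAGCTG, 20.03% CACCTG, 14.6% the M-CAT letters and 11.4% the GATA letters. Of the 10 leading heart genes with a window, 2 held CAGCTG, 4 CACCTG, 2 the M-CAT letters and 3 the GATA letters. Of the 7 leading muscle genes with a window, 1 held CAGCTG, 2 CACCTG, 3 the M-CAT letters and 1 the GATA letters. A match is a string of letters in the window and not a measured site.

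Fhl2, a LIM domain protein of the cardiac sarcomere, had the largest difference of the probes with a symbol on the ratio, though not from the Cy3 level alone, where Actn3 differed more. Its log2 ratio was 6.21 and 6.16 on the heart arrays and -4.14 and -2.43 on the muscle arrays, a difference of 9.47 (SE 0.50, adjusted p = 1.61e-10). The muscle arrays thus differed from each other by more than 1 log2, and still lay far below heart. Adrb1, the beta-1 adrenergic receptor that raises the rate and force of the heartbeat, followed with 5.37 and 5.27 in heart. Its spot on muscle replicate 1 was removed as an outlier, and muscle replicate 2, which had -0.12, was not well above background. The removed spot was the brighter one, with a Cy3 signal of 117 against 64.2 on muscle replicate 2. The level of Adrb1 was at least 27.2-fold higher in heart, a bound that rests on 1 muscle array and is defined below. With median centring the difference was 4.22 log2, less than this bound. The call of Adrb1 assumes that this lone array varies like those of the other tissues. Tnnt2, cardiac troponin T, had 3.89 and 4.06 in heart and 0.42 and -0.22 in muscle, a difference of 3.87 (SE 0.46, adjusted p = 4.64e-06).

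Among the other leading genes of the heart were an Eph receptor, an inositol phosphate kinase and several genes known mainly by clone numbers. Epha4, a receptor of ephrin ligands, had 2.43 and 2.53 in heart and -1.54 and -1.77 in muscle. Hisppd1 (now Ppip5k2), which makes inositol pyrophosphates, had 1.87 and 1.81 in heart and -2.55 and -2.62 in muscle, a difference of 4.43 (SE 0.43, adjusted p = 3.63e-07). Pm20d1, a secreted enzyme that joins fatty acids to amino acids, differed by 4.03, with 3.63 and 3.57 in heart. The replicates of each of these genes lay within 0.3 log2 of each other, and heart and muscle did not overlap. Of the genes named by clone numbers, A830073O21Rik differed by 4.79, 1700040L02Rik (now Cabcoco1, well above background on 1 muscle array) by 4.11, 6720475J19Rik by 3.80, 6030429G01Rik (now Dnaaf3) by 3.74 and 3110003A17Rik (now Abracl) by 3.65. The last of these was low in both tissues against the reference, with -0.27 and -0.40 in heart and -4.07 and -3.89 in muscle.

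For 4 others of the 15 leading heart probes neither muscle array was well above background, so only a bound can be given. The bound is the lowest of 3 folds, that of the ratio, that of the quantile normalised Cy3 level, and that of the Cy3 level after loess and Aquantile with each dim array set to the higher of its own signal and the lowest signal well above background. It rests on a single dye orientation and is open to dye bias. The ratio with median centring was not among the 3. For every probe given a bound here it came out smaller than the bound, so the bounds do not hold under that scaling. By this measure 2210016H18Rik was at least 37.0-fold higher in heart (adjusted p = 2.61e-09) and 4631405J19Rik at least 14.6-fold (adjusted p = 1.90e-05). The bound was 12.1-fold for 4732457N14 (adjusted p = 3.14e-06) and 10.8-fold for 1500001A10Rik (now Srrm4, adjusted p = 1.11e-07). With median centring the differences were 4.74, 3.23, 3.03 and 3.19 log2 in the same order.

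In muscle A530098C11Rik (now Mettl21c), a lysine methyltransferase of muscle, led the probes with a symbol on the ratio. From the Cy3 level alone, Actn3 and Myl1 were among the probes that differed more. A530098C11Rik had a ratio of 7.73 and 8.0 on the muscle arrays and 0.14 and -0.12 on the heart arrays, of which 1 was well above background, a difference of -7.86 (SE 0.36, adjusted p = 2.68e-11). Actn3, the alpha-actinin of fast fibres, had 4.87 and 4.92 in muscle and -2.90 and -2.76 in heart, a difference of -7.72 (SE 0.63, adjusted p = 3.84e-08). Mstn, which encodes myostatin, a secreted inhibitor of muscle growth, had 7.23 and 7.98 in muscle. It was not well above background in heart, where its level was at least 55.7-fold lower (adjusted p = 7.72e-07). With median centring it differed by -5.55 log2, less than this bound. Mybph, a myosin binding protein of skeletal muscle, had 4.96 and 5.15 in muscle and was at least 45.9-fold lower in heart (adjusted p = 8.47e-07). Its difference with median centring was -4.59 log2, again less than the bound.

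The rest of the leading muscle genes ranged from signalling to the Z-disc. Eya1, a transcriptional co-activator in muscle development, had 3.41 and 3.20 in muscle and -1.01 and -1.03 in heart, a difference of -4.32 (SE 0.24, adjusted p = 3.29e-10). The probe of 2310005C01Rik, which RefSeq lists as a synonym of Nos1 (neuronal nitric oxide synthase, held at the sarcolemma in muscle), had 2.46 and 2.65 in muscle and -1.94 and -1.67 in heart. Neu2, a cytosolic sialidase, differed by -4.03, and 2310045A20Rik (now Sel1l3) by -4.42. 2310065F04Rik, known by its clone number, had 5.55 and 6.18 in muscle and 0.34 and -0.13 in heart, where 1 array was well above background. Heart was not well above background for 6 further leading probes. Their levels were at least 51.8-fold lower in heart for Sctr (the secretin receptor), 41.1-fold for A830052D11Rik, 32.8-fold for Gdap1 (a mitochondrial outer membrane protein), 15.8-fold for Plcd4 (a phospholipase C), 15.3-fold for Adcy2 (an adenylyl cyclase) and 20.3-fold for 4833419K08Rik (now Myoz3, a Z-disc protein of fast fibres). Adjusted p ranged from 5.06e-10 for Adcy2 to 8.03e-06 for Myoz3. With median centring their differences were -5.06, -4.55, -3.81, -2.65, -3.09 and -3.31 log2 in the same order, all smaller than these bounds. All 30 leading probes kept their direction and call under each of the 19 other ways of processing that tested them.

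**Figure D2:**
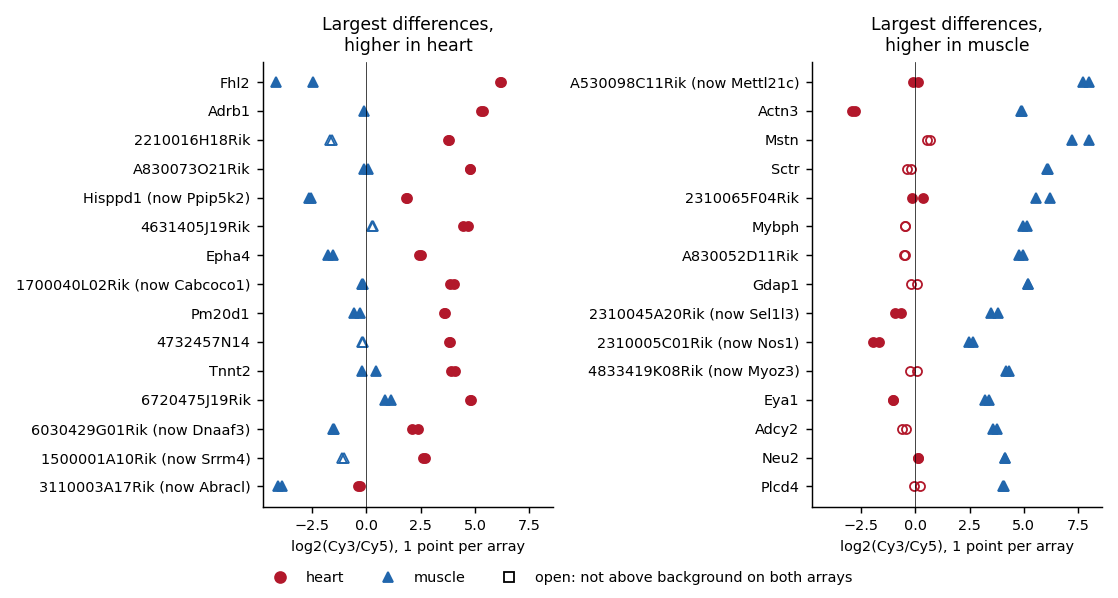
Log2(Cy3/Cy5) on each array for the 15 probes with a symbol that differed most in each direction, heart as circles and muscle as triangles, 1 point per array. Open points mark a tissue that was well above background on neither array. Adrb1 has 1 muscle point, from an array not well above background, and only Fhl2 and Tnnt2 on the heart side show muscle replicates more than 0.5 log2 apart.

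The Cy5 channel holds the same reference on every array, yet for many of the spots whose Cy3 differed most it did not stay level. Cy5 was over 1 log2 apart between the tissues for 14 of the 22 probes whose Cy3 was over 6 log2 higher in heart, and for 41 of the 51 over 6 log2 higher in muscle. For Tnnt2 the Cy5 signal was 49,653 and 41,756 scanner units on the heart arrays and 1,117 and 1,172 on the muscle arrays, while the Cy3 signal was 162,660 and 132,561 in heart and 554 and 323 in muscle. For Myl1, the alkali light chain of fast myosin, Cy5 was 123 and 93.8 on the heart arrays and 15,174 and 19,558 on the muscle arrays. Both channels were thus high together on the arrays of the tissue that had the bright Cy3 signal. Of 219 probes whose Cy5 level differed by at least 1 log2 between heart and muscle, 216 differed in the direction of Cy3. The median Cy5 difference was 2.14 for the 22 probes whose Cy3 was over 6 log2 higher in heart, -2.39 for the 51 probes whose Cy3 was over 6 log2 higher in muscle, and -0.03 for the 17,470 probes within 1 log2. Among the called probes 3,072 of 3,195 (96.2%) had Cy5 levels under 1 log2 apart, against 99.0% of all probes tested, and 123 of the 219 probes with a larger Cy5 difference were called. The part of this shift in the ratios was not tested.

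For the probes concerned the ratio and Cy3 alone gave different sizes. From the Cy3 level alone, quantile normalised, Tnnt2 differed by 7.60 instead of 3.87 and Cacna1s by -5.63 instead of -2.86. The largest gap among named genes was that of Myl1, with -7.50 instead of -1.38. Actn3 differed by -9.98, against -7.72 on the ratio, and Fhl2, whose Cy5 signal was between 13,389 and 16,927 on the 4 arrays, by 7.73 against 9.47.

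**Figure D3:**
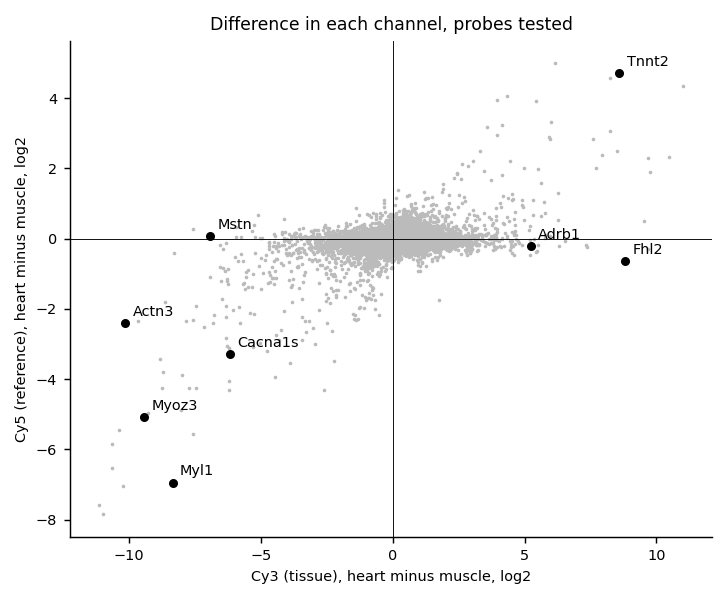
Heart minus muscle log2 difference of the Cy5 (reference) level against that of the Cy3 (tissue) level, 1 point per probe tested, after loess and Aquantile normalisation. Most points lie along the horizontal line at 0, and many of the points with large Cy3 differences bend away from it in the same direction as Cy3, such as Tnnt2 at the upper right and Myl1 at the lower left, whereas Mstn lies near the line and Fhl2 somewhat below it.

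Sarcomere and Z-disc genes were called in both directions. Of 16 members 2 were called higher in heart, 6 higher in muscle and 8 were not called, against 9.17% and 6.02% of all probes called in these directions, and the median difference was -0.70, against 0.04 over all probes. The muscle side held Actn3, Mybph and Myoz3, described above, and Tnni1, Capza1 and Myl1. Tnni1, the troponin I of slow fibres, had -0.34 and -0.23 in heart but 1.54 and 4.86 on the muscle arrays. These 2 muscle arrays differed more than any other pair of replicates among the sarcomere genes, and without muscle replicate 2 the difference was -1.82 instead of -3.49 (adjusted p = 0.086). Capza1, a capping protein of the Z-disc, had 0.96 and 0.71 in muscle and -0.55 and -0.86 in heart, a difference of -1.54 (adjusted p = 0.0104). Its call was lost without heart replicate 2 or muscle replicate 1, and from Cy3 alone (-0.87, adjusted p = 0.21). Myl1 differed by -1.38 (SE 0.48, adjusted p = 0.0427), and its call was lost when any of the 4 arrays was left out (adjusted p = 0.091 to 0.23). On the scanner software's processed signals Myl1 came out at 0.47, with the opposite sign.

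Other parts of the sarcomere were not called. Actn2, the alpha-actinin of cardiac and all skeletal fibres, had 4.82 and 4.93 in heart and 4.18 and 4.24 in muscle (difference 0.67, adjusted p = 0.472). Ankrd23, a stretch-response protein of the I-band, had 6.32 and 6.29 in heart and 6.51 and 6.65 in muscle (difference -0.27, adjusted p = 0.564). Des, the intermediate filament desmin, had 2.81 and 2.88 in heart and 3.17 and 3.02 in muscle (difference -0.25, adjusted p = 0.634). None of these passed the test on the ratio, and all lay well above the reference in both tissues. From Cy3 alone Ankrd23 differed by -1.02 (adjusted p = 0.0091) and met the rule for a call, whereas Actn2 and Des did not.

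Genes of excitation-contraction coupling and the neuromuscular junction gave 1 call for heart and 5 for muscle among 11 members, against 9.17% and 6.02% of all probes, with 5 not called and a median of -0.19. The median of this list ranged over the alternatives from -1.70 with the processed signals to 0.04 with median centring. 2310015B20Rik (now Mrln), which encodes a micropeptide that inhibits the calcium pump in skeletal muscle, had 5.97 and 6.23 in muscle and 2.15 and 2.32 in heart, a difference of -3.86 (SE 0.37, adjusted p = 3.61e-07). Jph1, which ties the transverse tubule to the calcium store, had 4.74 and 4.76 in muscle and 0.94 and 0.90 in heart. Cacna1s, the voltage sensor of skeletal muscle, had 4.37 and 4.41 in muscle and 1.38 and 1.69 in heart. In these genes of the triad the replicates agreed within 0.4 log2 and the tissues were well apart. Ache, the enzyme that breaks down acetylcholine at the synapse, was not well above background in heart. It was at least 3.59-fold lower there (adjusted p = 0.00896), and with median centring it differed by -1.34 log2, less than this bound. The call of Ache was lost without heart replicate 1, heart replicate 2 or muscle replicate 1. Camk2g, a calcium-dependent kinase, differed by -1.67 (adjusted p = 1.13e-06).

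Agrn, the nerve-derived organiser of the synapse, went the other way, with -0.22 and -0.11 in heart and -1.88 and -1.71 in muscle (difference 1.63, adjusted p = 0.000837). With median centring it was no longer called (adjusted p = 0.057). Atp1b1, a subunit of the sodium pump, had 3.40 and 3.38 in heart and 1.35 and 2.61 in muscle, and did not pass the test (adjusted p = 0.096). Nor did Nos1ap, an adaptor of neuronal nitric oxide synthase, with a difference of 0.86 (adjusted p = 0.0902), and Kcne4, a potassium channel subunit, with 0.05 (adjusted p = 0.976).

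Receptors and enzymes of adrenergic and G protein signalling split between the tissues. Of 31 members 9 were called higher in heart, 4 higher in muscle and 18 were not called, against 9.17% and 6.02% of all probes called in these directions, and the median was 0.50. The count for muscle was 2 without muscle replicate 2 and 2 with slide as a random block. Beside Adrb1, Adra1a, an alpha-1 receptor singled out here after its values were seen, had 1.55 and 1.58 in heart and was not well above background in muscle. Agtr1a, the angiotensin II receptor, had 5.38 and 5.34 in heart and 2.12 and 2.24 in muscle, a difference of 3.18 (SE 0.50, adjusted p = 0.000102). Agtrap, a protein that binds it, differed by 1.99 (adjusted p = 4.46e-07), and Adora1, the adenosine A1 receptor that slows the heart, by 1.77 (adjusted p = 1.67e-06).

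The adenylyl cyclases, which make cyclic AMP, also went both ways. Adcy5, known as a main cardiac form, had 3.82 and 3.86 in heart and 0.74 and 0.49 in muscle, a difference of 3.22 (SE 0.45, adjusted p = 2.36e-05). Adcy2, in contrast, had 3.58 and 3.77 in muscle and -0.59 and -0.42 in heart. Rgs2, which switches off G protein signals, had 1.99 and 1.71 in heart and -1.47 and -1.40 in muscle, a difference of 3.29 (SE 0.60, adjusted p = 0.000439). Ramp1, part of the receptor for calcitonin gene-related peptide, had 3.44 and 3.93 in muscle and 1.71 and 1.68 in heart, and its call was lost without muscle replicate 2 (adjusted p = 0.078). Rgs5, a pericyte gene, was high in both tissues, with 7.47 and 7.46 in heart and 6.63 and 6.97 in muscle (difference 0.66, adjusted p = 0.105). Gnai3 (0.63, adjusted p = 0.491) and Adrbk1 (now Grk2, -0.36, adjusted p = 0.105) did not pass either.

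Among regulators of muscle and heart growth and fate that carried a symbol, calls went only towards muscle. Cardiac factors of this list such as Gata4, Tbx5, Tbx20 and Hand2 carried no symbol and were not analysed here. Of 25 members 11 were called higher in muscle and 0 in heart, 14 were not called, against 6.02% and 9.17% of all probes, and the median was -0.69. At an unadjusted p under 0.05 and any size, 2 members were higher in heart, Hes6 and Dkk2. Myog, the myogenic factor of differentiating muscle, had 1.85 and 2.30 in muscle and -1.69 and -1.34 in heart, a difference of -3.59 (SE 0.50, adjusted p = 2.57e-05). Of the receptors of activins and related ligands, Acvr1b differed by -1.75 (adjusted p = 3.57e-06), Acvr2a by -1.44 (adjusted p = 0.00143) and Acvr2b by -1.25 (adjusted p = 0.00179), whereas Acvrl1, known from endothelium, was not called (0.74, adjusted p = 0.0598). Igfbp5, which binds insulin-like growth factors, was high in both tissues, with 5.64 and 5.23 in muscle and 3.37 and 3.70 in heart. Acvr2a had 2.95 and 2.03 on the muscle arrays and was not called without muscle replicate 1 (adjusted p = 0.051). Members that were not called included Tmem182 (difference 0.51, adjusted p = 0.585) and Rxrg (-0.35, adjusted p = 0.666), each with ratios over 5 on all 4 arrays, and 2610024B07Rik (now Tead1, -0.61, adjusted p = 0.244).

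**Figure D4:**
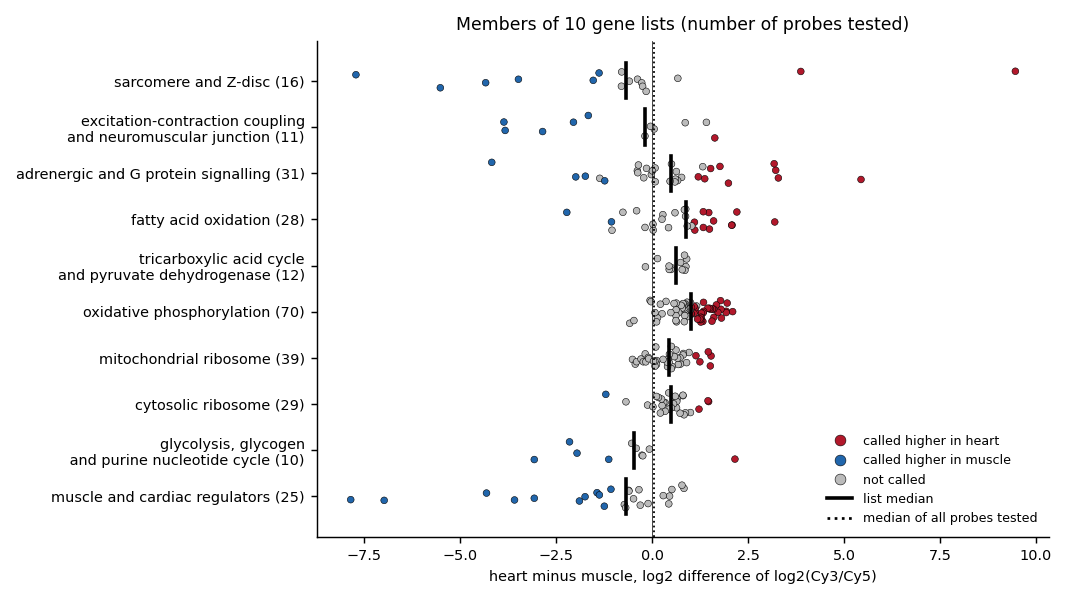
Heart minus muscle log2 difference for each probe of 10 gene lists, with the number tested in brackets. Thick bars are list medians and the dotted line is the median of all 21,025 probes (0.04). The sarcomere list reaches out to both ends of the axis and the regulators to the muscle end, whereas oxidative phosphorylation forms a narrow group with a median of 1.01.

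Of the 10 probes tested in the list of glycolysis, glycogen and the purine nucleotide cycle, 4 were called higher in muscle and 1 in heart, against 6.02% and 9.17% of all probes, and 9 had a difference below 0. Prkag3, the AMP-activated kinase subunit of fast fibres, had 3.58 and 3.69 in muscle and 0.50 and 0.62 in heart. Its difference was -3.07 (SE 0.30, adjusted p = 3.23e-07). On the processed signals it was -0.92 (adjusted p = 0.12), and from Cy3 alone -5.37 (adjusted p = 1.26e-09). The Cy5 level of this probe differed by -3.12. Adssl1, the muscle form of adenylosuccinate synthase, had 5.37 and 5.53 in muscle and 3.43 and 3.55 in heart. Bpgm, which makes and breaks down bisphosphoglycerate, differed by -2.15 (adjusted p = 5.56e-07). The exception was Pfkfb2, the cardiac form of the enzyme that makes the glycolytic activator fructose 2,6-bisphosphate, with 3.62 and 3.38 in heart and 1.28 and 1.40 in muscle (difference 2.16, SE 0.49, adjusted p = 0.00300).

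Fatty acid oxidation lay on the side of the heart. Of 28 members 11 were called higher in heart and 2 in muscle, against 9.17% and 6.02% of all probes, 15 were not called, and the median was 0.87. Hadhb, a subunit of the trifunctional protein of beta-oxidation, had 4.76 on both heart arrays and 2.30 and 2.80 in muscle, a difference of 2.21 (SE 0.34, adjusted p = 6.94e-05). Acadl, a long-chain acyl-CoA dehydrogenase, had 4.70 and 4.63 in heart and 2.31 and 2.87 in muscle (difference 2.07, adjusted p = 0.000156), and Acaa2, the thiolase of the last step, differed by 2.08 (adjusted p = 9.78e-08). The acyl-CoA thioesterases Acot1 (3.19, adjusted p = 0.000156) and Acot2 (1.60, adjusted p = 5.19e-05) were higher in heart too. Acsl3, an acyl-CoA synthetase, was higher in muscle, with 1.04 and 0.03 there and -1.70 and -1.67 in heart. Dci (now Eci1) differed by 1.49 (adjusted p = 4.18e-05) and Acadm, the medium-chain dehydrogenase, by 1.47 (adjusted p = 0.0161), a call that was lost without heart replicate 1, heart replicate 2 or muscle replicate 1 (adjusted p = 0.057 to 0.15). With scan day as a random block 6 members were called higher in heart. With median centring 5 members were called higher in heart and 2 in muscle, against 4.93% and 6.24% of all probes, and the median was 0.50.

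Oxidative phosphorylation, the largest list, was called towards heart. Of 70 members 33 were called higher in heart and 0 in muscle, against 9.17% and 6.02% of all probes, 66 differences were above 0 and the median was 1.01. Uqcrh, a subunit of complex III, had 2.18 and 2.23 in heart and -0.00 and 0.21 in muscle, a difference of 2.10 (SE 0.21, adjusted p = 4.92e-07). Cox7a2, a subunit of cytochrome c oxidase, had 2.18 and 2.28 in heart and 0.14 and 0.47 in muscle, and Atp5o, in the stalk of ATP synthase, had 2.76 and 2.83 in heart and 0.83 and 1.18 in muscle. The 28 subunits of complex I were all above 0, from 0.49 to 1.80, and 11 of them were called. Calls were made for 7 of 8 probes of complex III, 4 of 5 of complex IV and 9 of 14 of complex V, against 0 of 3 of complex II and 2 of 12 assembly factors. Among the uncalled members with the highest Cy3 levels were Ndufb9 (1.00), Atp5c1 (0.99) and Atp5b (0.85). All had an adjusted p under 0.05 but a difference under the threshold of 1. Muscle replicate 1 lay below muscle replicate 2 for 67 of the 70 members, with list medians of 1.19 and 1.47, against 2.46 and 2.45 on the heart arrays.

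The median of the oxidative phosphorylation list stayed above 0 under the other scalings, but its count of calls did not hold. With median centring 4 of the 70 members were called higher in heart and the median was 0.30, and with Cy3 alone the count was 7 and the median 0.55. Over all probes tested, 4.93% and 7.32% were called higher in heart under these scalings. The tricarboxylic acid cycle list, with 12 members, had 0 calls in either direction by limma, although 11 differences were above 0 and the median was 0.62. In that list 7 members had an unadjusted p under 0.05, and 2 were called with a normexp offset of 16. With median centring its median was -0.06, on the other side of 0. Cs, citrate synthase, differed by 0.78 with loess (adjusted p = 0.00531) and by -0.03 with median centring. Brp44 (now Mpc2), part of the mitochondrial pyruvate carrier, differed by 0.90 with loess and 0.02 with median centring.

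The ribosomal lists were called about as often as all probes (15.2%). Of 39 mitochondrial ribosome members 5 were called higher in heart and 0 in muscle (12.8%), led by Mrpl28 with 1.06 and 1.14 in heart and -0.50 and -0.36 in muscle. Of 29 cytosolic ribosome members 3 were called higher in heart and 1 in muscle (13.8%). Every cytosolic member had a ratio below 0 on all 4 arrays, so both tissues lay below the reference of cultured cells. The medians, 0.44 and 0.50 with loess, turned to -0.13 in both lists with median centring. Under that scaling 1 mitochondrial and 0 cytosolic members were called higher in heart, against 4.93% of all probes. Mrpl28 then lost its call (0.70, adjusted p = 0.25). Rpl36a and Rpl41 were among those on the heart side and Arbp (now Rplp0) on the muscle side, with -2.82 and -2.74 in heart and -1.57 on both muscle arrays. Ribosomal protein genes have many near-identical pseudogene copies, so their probes may read more than 1 transcript.

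**Figure D5:**
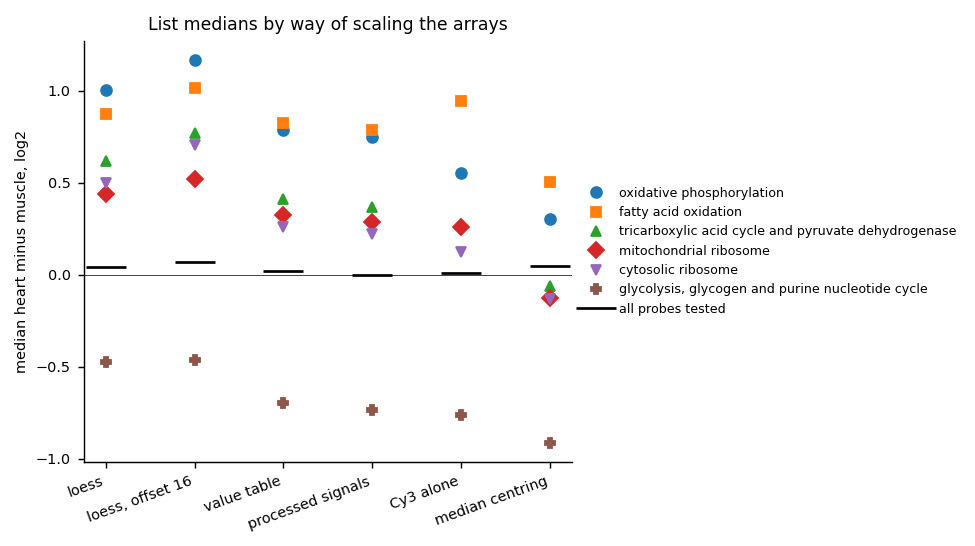
Median heart minus muscle log2 difference of 6 gene lists (symbols) and of all probes tested (black bars) under 6 ways of scaling or reading the arrays. Fatty acid oxidation and oxidative phosphorylation stay above 0 and the glycolysis list stays below 0 in all 6, whereas the tricarboxylic acid cycle and both ribosome lists turn slightly below 0 with median centring.

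Markers of other cells that a piece of tissue can hold were examined beside these results. Of 12 fibroblast and connective tissue probes 1 was called (8.33%, against 6.02% of all probes in this direction), Aebp1, higher in muscle (difference -1.43, adjusted p = 0.00038), and the median was 0.20. Fmod, a collagen-binding proteoglycan of tendon, had 2.46 and -0.999 on the muscle arrays, so the replicates lay on opposite sides of heart (-0.81 and -0.60). Of 6 endothelial probes 1 was called (against 9.17% of all probes), Tm4sf1, higher in heart (1.25, adjusted p = 0.00241). Tm4sf1 was not called with median centring (0.98) or with Cy3 alone (0.94). Of 3 smooth muscle and pericyte probes 0 were called. Of 17 leukocyte probes 4 were called higher in heart (23.5%, against 9.17% of all probes), the macrophage and Fc receptor genes Fcgr3 (1.94), Fcgr2b (1.55), Mpeg1 (1.31) and Fcer1g (1.24). With median centring 1 of the 17 was called, against 4.93% of all probes. Mpeg1 lost its call without heart replicate 1, heart replicate 2 or muscle replicate 2. Ptprc, the common leukocyte antigen, differed by 0.70 and was not called (adjusted p = 0.237).

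Of 2 Schwann cell and nerve probes 1 was called higher in muscle, against 6.02% of all probes. The single adipocyte marker with a value, Agpat2, which is also a general enzyme of lipid synthesis, was higher in heart by 2.06 (adjusted p = 2.29e-05). Neither the erythroid marker Slc25a37 nor any of 6 epidermis probes was called, and no probe of the epicardium and mesothelium list had a symbol. The part of these cell types in the lists above was not tested.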

How the data were processed

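The 30 arrays were scanned and read with Feature Extraction (version 9.5.1.1) by the authors, who deposited the spot intensity files. They also deposited a value table on a log10 scale, which followed log10 of the Cy3 signal (r from 0.982 to 0.993 over arrays) and whose exact scaling is not stated. The mean signals were corrected for local background (normexp, offset 50), normalised within arrays (loess), and averaged per probe as log2(Cy3/Cy5) with limma (3.58.1, R 4.3.3). In all 475 outlier spots were removed. Of the 25,030 probes of the value table, 21,025 passed the filter, which asked that both arrays of some tissue be well above background in Cy3 and that every tissue have a value. A limma model with 1 coefficient per tissue over the 30 arrays gave heart minus muscle, two-sided, adjusted by Benjamini-Hochberg. The code was tested on simulated data. A call required an adjusted p under 0.05 and a log2 difference of at least 1. With 2 arrays per tissue their number limits the precision, and the spread was pooled over the 15 tissues.

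Symbols came from the study's probe lists. Named were the 15 called probes with a symbol that differed most each way without overlap. Per list, up to 8 called members were named by size and up to 3 uncalled members by mean Cy3 level. These lists and members were chosen with earlier results of these data known. Alternatives covered scaling, background, signal, filters, arrays in the fit, blocks and test. Promoters came from RefSeq (GRCm38.p6). A few list members are not reported here by name, and remain in the counts.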

Additional observations from a re-analysis of the deposited data

Results flagged for a closer look

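Probes on the array that the authors' value table does not hold also differed between heart and muscle. Of 13,619 such probes that passed the same filter 1,508 (11.1%) were called, 759 higher in heart and 749 higher in muscle. They were noted because the value table and the comparisons above leave them out. They carry no symbol here.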

How the results depend on the processing

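The number of calls stayed within 1.5 times of 3,195 under each alternative except limma's treat against a log2 difference of 1, which left 934. Leaving out any 1 of the 4 arrays gave 2,603 to 2,744 calls. The share of calls higher in heart, 60.4%, turned to 44.1% with median centring. It was 53.8% with Cy3 alone, 53.5% with the processed signals, 56.4% with the value table, 58.3% with slide as a random block, 53.9% with treat, 57.0% over all probes of the array, and 58.5% to 59.7% with 1 array left out. The cause was not tested. Of 87 named probes that were called, 52 kept the call under every alternative, and Myl1 alone reversed, to 0.47 with the processed signals and 0.51 with the value table (adjusted p = 0.79 and 0.72). Slide and scan day could not be fitted as fixed blocks, because neither lets heart minus muscle be estimated, and only random blocks were run. Whether heart and muscle arrays of the same replicate number came from the same animal is not stated. The replicate deviations of heart and muscle correlated at 0.08 over probes, which cannot settle this. The fit with replicate number as a block gave 3,221 calls, 60.5% higher in heart. Chosen after seeing the data, a count of probes whose Cy5 levels lay under 1 log2 apart gave 3,072 calls.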

Other observations

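The calls were also placed among all 15 tissues of the series. Of the 1,929 probes called higher in heart, heart had the highest mean ratio of the 15 tissues for 462, and muscle the lowest for 503. Of the 1,266 probes called higher in muscle, muscle was the highest for 693 and heart the lowest for 83. Picking probes by the difference between heart and muscle itself favours such ranks. The same ranks were not counted over all probes tested, so these counts have no level to be read against. Fhl2 was highest in heart, whereas Adrb1 was highest in lung (5.96) and Actn3 in bone (5.49, against 4.90 in muscle). The Cy5 level of Actn3 also differed between heart and muscle, by -2.41. The part of that shift in its rank on the ratio was not tested. A530098C11Rik (Mettl21c) had 5.53 in bone.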
